A study of Mus musculus with 6 samples.

Results

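The genes described here are 8 regulators and effectors of skeletal muscle formation, *Pax3*, *Pax7*, *Myf5*, *Myod1*, *Myog*, *Myf6*, *Mymk* and *Mymx*. They were taken by symbol from the 32286 genes of the count matrices, and all 8 were found, each once. Their UMIs (unique molecular identifiers, which count each captured transcript once) were read in all 6 libraries of digits in a dish (DID) cultures.

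Limb muscle comes from cells that leave the somites and migrate into the limb bud, whereas cartilage and tendon come from the limb's own mesenchyme. *Pax3* and *Pax7* are paired-box transcription factors of muscle progenitors. *Myf5* and *Myod1* are basic helix-loop-helix (bHLH) factors that commit a progenitor to the muscle fate, *Myog* (myogenin) drives terminal differentiation, and *Myf6* (MRF4) acts in differentiation and in muscle fibres. *Mymk* (myomaker) and *Mymx* (myomixer) are membrane proteins that fuse single muscle cells into fibres with many nuclei.

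The cultures were grown from the distal part of forelimb buds of wild-type CD-1 mouse embryos at E11.5. Tissue of several embryos was pooled, dissociated to single cells and plated in medium with 10% fetal bovine serum. A pair of independent cultures, replicates A and B, was sequenced on each of Day 2, Day 7 and Day 10, and no treatment or genetic change separated the groups. Muscle progenitors entered these cultures only as far as they had reached the dissected distal tissue by E11.5.

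The study's limits, as applied here, kept 9448 (replicate A) and 16486 (replicate B) cells of Day 2, 13485 and 12346 of Day 7 and 10385 and 9949 of Day 10, which is not in every library the exact number that the study states. Summed UMIs lay between 178022112 and 260245417 per library. Day 2 replicate B stood apart in depth, with a median of 3871 UMIs per cell against 18587 in replicate A, so values that depend on depth are given for each library. Any pair of libraries shared 24 to 67 cell barcodes, at most 0.543% of the smaller library.

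The 8 genes lie on 6 GRCm38 chromosomes, and in the GENCODE vM21 annotation no other gene overlaps any of them. *Myf5* (chromosome 10, 107482908 to 107486134) and *Myf6* (107492853 to 107494737) are neighbours on the minus strand, 6719 bases apart. *Pax3* (78101267 to 78197134, minus strand) and *Myog* (134289989 to 134292548, plus strand) are on chromosome 1. *Pax7* is on chromosome 4 (139737062 to 139833528), *Myod1* on chromosome 7 (46376474 to 46379099, plus strand), *Mymk* on chromosome 2 (27061636 to 27072179) and *Mymx* on chromosome 17 (45600971 to 45602102). The annotated transcripts have at most 9 exons for *Pax3* and *Pax7*, 5 for *Mymk*, 3 for the 4 bHLH genes and 2 for *Mymx*. The nearest gene to *Mymk*, *Adamtsl2*, is 7200 bases away on the other strand.

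The promoters of a commitment gene and of the differentiation gene that comes after it are shown because the levels of both are followed below through the same cells. RefSeq sequences of GRCm38.p6 were at hand for 3 of the 8 genes. The E-box, the site that bHLH factors bind, was searched on both strands as CANNTG, a pattern that is its own reverse complement. In the 250 bases before the RefSeq start, *Myog* held 2 E-boxes (in capitals, beginning 138 and 12 bases before the start), and *Myf5* held 0. The *Pax7* window held 0 too, but it lies inside the GENCODE gene, downstream of its start, and so is not the promoter of that annotation. The GENCODE start of *Myog* lies within the last bases of this window. Of 32851 promoter windows of the same length, 66.2% held at least 1 E-box and 31.8% at least 2. The *Myog* window (chr1:134289754-134290003, plus strand) and the *Myf5* window (chr10:107486135-107486384, minus strand) read, 5′ to 3′:
Myog: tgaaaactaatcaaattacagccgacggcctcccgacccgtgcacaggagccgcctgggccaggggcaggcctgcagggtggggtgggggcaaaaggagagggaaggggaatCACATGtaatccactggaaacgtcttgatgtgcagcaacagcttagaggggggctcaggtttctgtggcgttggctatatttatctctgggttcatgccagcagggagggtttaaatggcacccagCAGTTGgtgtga
Myf5: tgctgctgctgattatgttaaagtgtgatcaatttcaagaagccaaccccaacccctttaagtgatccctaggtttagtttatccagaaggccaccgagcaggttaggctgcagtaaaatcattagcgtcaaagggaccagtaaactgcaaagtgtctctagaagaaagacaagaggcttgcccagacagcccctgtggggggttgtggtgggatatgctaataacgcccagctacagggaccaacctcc

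Day 2 cultures held RNA of all 8 genes, and most of it was gone by Day 7. Levels are CPM, a gene's UMIs per 1000000 UMIs of a library. Each UMI marks the 3′ end of a transcript, so these levels are not divided by gene length.

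*Pax3* stood at 1.42 and 1.25 CPM in the Day 2 replicates, given in the order A, B here and throughout. It was at 0.0671 and 0.0599 CPM at Day 7, then at 0.0269 and 0.0386 CPM at Day 10. *Pax7* stood at 1.08 and 1.17 CPM at Day 2, with 223 and 209 UMIs. Not 1 *Pax7* UMI was found among 13485 and 12346 cells at Day 7, which allows a share of up to 0.0222% and 0.0243% of cells with a UMI, and Day 10 held 1 UMI in replicate A and 0 in replicate B. At Day 7, 10 and 9 cells still had a *Pax3* UMI.

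*Myf5* was at 2.38 and 2.40 CPM at Day 2, at 0.417 and 0.439 CPM at Day 7 and at 0.0576 and 0.0772 CPM at Day 10. *Myod1* was higher at Day 2, at 16.1 and 12.1 CPM, and reached 1.14 and 0.314 CPM at Day 7 and 0.0115 and 0.150 CPM at Day 10. At Day 7, 67 and 66 cells had *Myf5* and 31 and 22 had *Myod1*, but with every cell thinned to 1000 UMIs *Myf5* was in 0.0222% and 0.0486% of cells and *Myod1* in 0.0816% and 0.0891%, so no order of the genes is read from these counts. *Myf6* was the rarest bHLH gene, with 22 and 10 UMIs on Day 2, then 5 and 3 on Day 7, then 2 and 3 on Day 10, never more than 1 in a cell.

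*Myog* was the most abundant member in both Day 2 libraries, at 39.5 and 27.6 CPM. It stood at 2.57 and 0.748 CPM at Day 7 and at 0.0576 and 0.489 CPM at Day 10. The replicates of a later day differed several-fold from each other, and few cells carried the signal. In Day 7 replicate B, 5 cells held 65.3% of the *Myog* UMIs, and in Day 10 replicate B 5 cells held 90.4%.

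*Mymx* was at 14.2 and 9.54 CPM at Day 2, 1.47 and 0.439 CPM at Day 7 and 0.0231 and 0.244 CPM at Day 10. *Mymk* was at 8.36 and 7.24 CPM at Day 2, 1.89 and 0.564 CPM at Day 7 and 0.254 and 0.412 CPM at Day 10. Both Day 10 libraries thus held more *Mymk* than *Mymx*, whereas both Day 2 libraries held more *Mymx* than *Mymk*. The Day 10 excess lay outside the muscle gate described below, with 65 and 65 *Mymk* UMIs there against 5 and 9 of *Mymx*. Gated Day 10 cells held 1 and 31 *Mymk* UMIs and 1 and 48 *Mymx* UMIs. In the order of levels at Day 2, from *Myog* to *Myf6*, the ranges of *Myod1* and *Mymx* were the only ones of neighbours that overlapped.

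**Figure D1:**
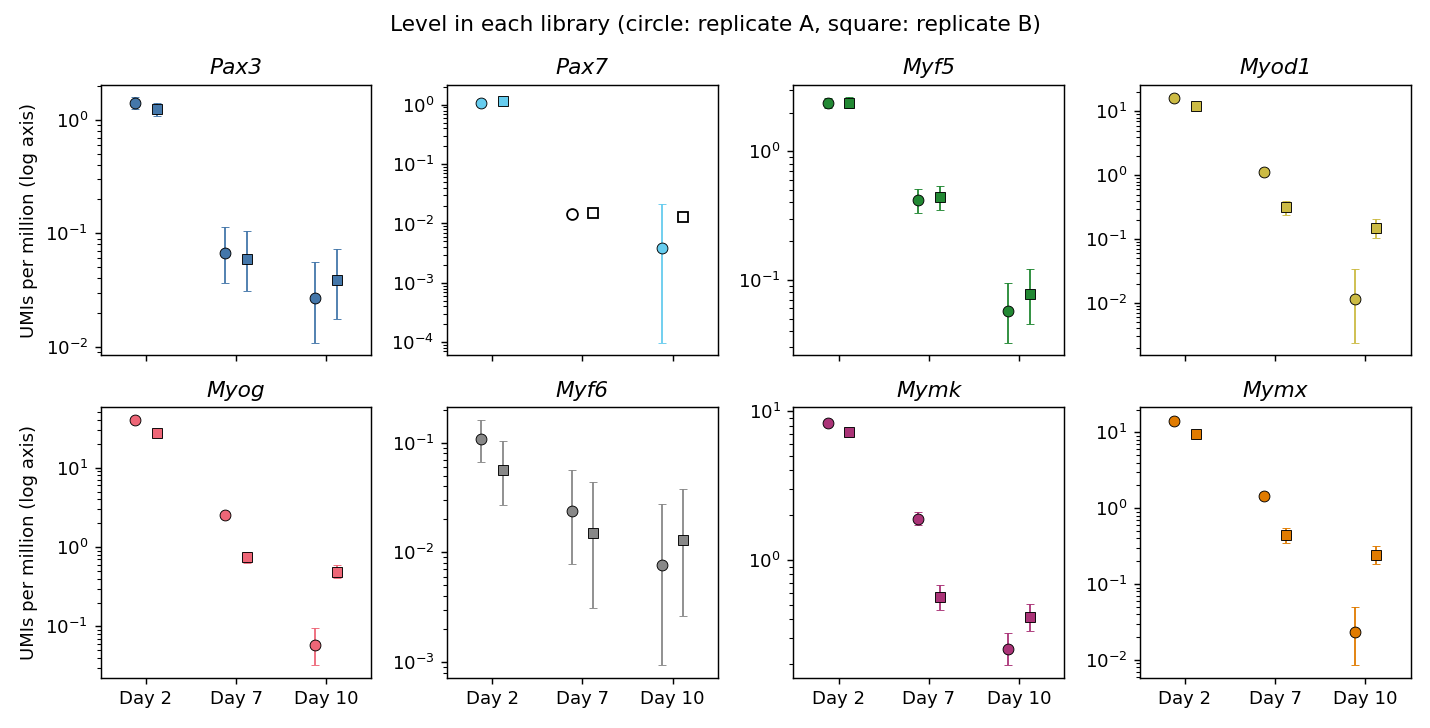
Level of each of the 8 genes in each library (CPM, log axis) against day of culture, with 1 point per library and open symbols for a library with 0 UMIs, drawn at the level of 3 UMIs. All 8 genes were lowest at Day 7 or Day 10, and *Mymk* is the member with the highest Day 10 level in replicate A, at 0.254 CPM.

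Summed over whole cultures, all 8 genes were lower at Day 7 than at Day 2. edgeR's quasi-likelihood test called 34.6% of the 18987 genes tested lower in this comparison. The log2 fold change was -4.05 ± 0.52 (SE derived from edgeR's F statistic, n = 2 cultures per day) for *Myog* (edgeR adjusted p = 0.00012), and -4.1 ± 0.23 for *Pax3* (edgeR adjusted p = 7.4e-07). *Myod1* changed by -4 ± 0.48 (edgeR adjusted p = 7.5e-05), *Mymx* by -3.35 ± 0.52 (edgeR adjusted p = 4e-04), *Mymk* by -2.38 ± 0.41 (edgeR adjusted p = 0.00074) and *Myf5* by -2.2 ± 0.15 (edgeR adjusted p = 2.2e-06). *Pax7* was at least 154-fold lower, taking 3 UMIs over both Day 7 libraries as the floor (edgeR adjusted p = 1.5e-06). The change of *Myf6*, -1.77 ± 0.55 (edgeR adjusted p = 0.018), was not called without Day 2 replicate A, without Day 7 replicate A or without Day 7 replicate B (edgeR adjusted p = 0.16, 0.059 and 0.13), nor by DESeq2 (adjusted p = 0.14). Without Day 7 replicate A and then without Day 7 replicate B, the log2 fold change was -5.19 and -3.42 for *Myog*, -5.19 and -3.35 for *Myod1*, -4.46 and -2.73 for *Mymx* and -3.49 and -1.76 for *Mymk*, and edgeR called each of these. *Pax7* and *Myf6* passed edgeR's low-count filter through Day 2 alone, so entry to the test set their direction. In sums over whole cultures, fewer muscle cells and less RNA per cell cannot be told apart.

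Between Day 7 and Day 10, 5 of the 8 genes fell further, where 25.9% of all genes tested were called lower. *Myf5* fell by 2.69 ± 0.2 on the log2 scale (edgeR adjusted p = 3.4e-05), *Myod1* by 3.25 ± 0.78 (edgeR adjusted p = 0.0083), *Mymx* by 2.91 ± 0.75 (edgeR adjusted p = 0.012), *Myog* by 2.68 ± 0.73 (edgeR adjusted p = 0.015) and *Mymk* by 1.92 ± 0.49 (edgeR adjusted p = 0.011). *Myf5* alone was called under every alternative tried for this step. Without Day 10 replicate A it was the only member called of the 8, and without Day 7 replicate A *Myf5* and *Mymk* were the 2 called. *Pax3* at -0.98 (edgeR adjusted p = 0.052), *Myf6* at -0.93 (edgeR adjusted p = 0.34) and *Pax7* were not called.

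Against Day 2, all 8 genes were lower at Day 10, with 38.2% of all genes called lower. Apart from *Pax7*, the log2 fold changes ran from -2.7 ± 0.6 for *Myf6* (edgeR adjusted p = 0.0029) to -7.24 ± 0.63 for *Myod1* (edgeR adjusted p = 7.6e-06). *Myog* changed by -6.73 ± 0.64, *Mymx* by -6.27 ± 0.66 and *Mymk* by -4.3 ± 0.47 (edgeR adjusted p = 1.3e-05, 2.7e-05 and 3.3e-05), and the difference between genes was not tested. The size of these changes rests on the Day 10 libraries and on the filter. Without Day 10 replicate A and then without Day 10 replicate B the log2 fold change was -6.29 and -9.91 for *Myod1*, -5.84 and -8.89 for *Myog*, -5.34 and -8.69 for *Mymx* and -3.98 and -4.66 for *Mymk*. With the upper limit on genes per cell lifted it was -5.09 for *Myod1*, -5.13 for *Myog*, -4.61 for *Mymx* and -3.1 for *Mymk*, and edgeR called all 4 in each of these fits. For *Pax7* the ratio of Day 2 to Day 10 was 556, with an interval of 99.2 to 22003 that covers counting error only.

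The upper limit of 7500 detected genes per cell bore on the Day 10 values. In Day 10 replicate A, 660 barcodes were over that limit, and 3 of them, with a median of 127889 UMIs, passed the muscle gate described next. These barcodes held 77 of 77 *Myod1* UMIs and 154 of 155 *Myog* UMIs found over the limit, where the 10385 cells kept held 3 and 15. With the limit lifted, an alternative added after the data had been seen, *Myog* stood at 0.518 and 0.874 CPM at Day 10 and its change from Day 7 was -1.34 (edgeR adjusted p = 0.064). The changes of *Myod1*, -1.38 (edgeR adjusted p = 0.065), and *Mymk*, -1.05 (edgeR adjusted p = 0.097), were then not called either, while *Mymx* at -1.57 (edgeR adjusted p = 0.036), *Myf5* at -2.66 (edgeR adjusted p = 4.4e-05) and *Pax3* at -1 (edgeR adjusted p = 0.048) were.

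To see the genes in muscle cells alone, a cell was placed in the muscle gate if it had UMIs of at least 3 of 22 sarcomere and muscle membrane genes, such as *Ttn*, *Myh3* and *Chrna1*, and at least 0.2% of its UMIs on that list. None of the 8 genes is on the list. The gate held 268 and 488 cells at Day 2, which is 2.84% (exact 95% interval 2.51 to 3.19) and 2.96% (2.71 to 3.23) of the cells. These shares depend on the limit, more so in the shallow replicate B, where 211 of the 488 cells had under 3000 UMIs. With the limit at 0.1% of UMIs they were 3.31% and 4.02%, and at 0.5% they were 2.16% and 1.01%, so the replicates were close at 0.2% and not at 0.5%. The gate held 92 and 95 cells at Day 7, 0.682% (0.550 to 0.836) and 0.769% (0.623 to 0.940). At Day 10 it held 2 cells in replicate A and 19 in replicate B, 0.0193% (0.00233 to 0.0696) and 0.191% (0.115 to 0.298). With cells of every depth counted, the shares of the 3 days did not overlap, and the gate itself was not tested. Among cells of at least 3000 UMIs, the gate kept 258 of 8802 and 277 of 9653 on Day 2. The Day 7 replicates then had 20 of 9328 and 2 of 9439, against 1 of 9563 and 8 of 8861 for Day 10. Day 7 replicate B thus lay below Day 10 replicate B, so Day 7 and Day 10 overlapped, on few cells.

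Most of the differentiation and fusion RNA lay in the gated cells of Day 2. They held 95.9% and 89.1% of *Myog* UMIs, 97.7% and 92.2% of *Mymx* UMIs, and 90.2% and 84.3% of *Mymk* UMIs. *Pax7* and *Myf5* lay mostly elsewhere, with 11.2% and 9.09% of *Pax7* UMIs and 23.7% and 11% of *Myf5* UMIs in the gate. A *Myog* UMI was in 92.9% of the gated cells of Day 2 replicate A and in 57.2% of those of replicate B. In cells with cartilage genes, which should lack muscle RNA, 1.48% and 1.38% had one, at median depths of 14812 and 16564 UMIs against 25396 and 3428 in the gate.

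In the sums over gated cells, the differentiation and fusion RNAs were still present at Day 7. In CPM of gated cells, *Myog* was at 1045 and 805 at Day 2, at 549 and 490 at Day 7 and at 1077 and 657 at Day 10, where replicate A had 2 gated cells with 10 *Myog* UMIs. *Myod1* was at 404 and 333 at Day 2 and at 239 and 227 at Day 7. *Mymk* was at 208 and 200 at Day 2 and at 357 and 254 at Day 7, while *Mymx* was at 383 and 288 and then at 314 and 325. The tests of these differences follow below.

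The Day 7 levels rest on few deep cells. In Day 7 replicate A, 20 of 92 gated cells had at least 3000 UMIs and held 88.1% of the gated UMIs, and in replicate B 2 of 95 held 47.2%. In those deep cells *Myog* was at 591 and 830 CPM and *Mymk* at 390 and 481 CPM. In the other 72 and 93 cells *Myog* was at 237 and 185 CPM, *Myod1* at 45.6 and 75.8 CPM, *Mymk* at 119 and 50.5 CPM and *Mymx* at 128 and 92.7 CPM. Gated Day 2 cells under 3000 UMIs, 10 and 211, had *Myog* at 518 and 235 CPM and *Mymk* at 51.8 and 77.4 CPM.

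Among gated cells, 1 of the 7 members tested, *Myf5*, was called between Day 2 and Day 7. It changed by -3.61 ± 1.1 (edgeR adjusted p = 0.046), from 116 and 47 UMIs at Day 2 to 1 and 0 at Day 7. *Myf5* and *Pax7* passed the low-count filter through Day 2 alone, so entry to the test set their direction. For scale, 5.76% of the 10805 genes tested were called lower and 8.68% higher. The call was lost without Day 2 replicate B and without Day 7 replicate A (edgeR adjusted p = 0.16 and 0.17), and with DESeq2's test (adjusted p = 0.13). Without Day 2 replicate A and with the gate at 0.5%, *Myf5* did not reach the low-count filter.

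*Myog* at -0.7 ± 0.4 (edgeR adjusted p = 0.28), *Myod1* at -0.52 ± 0.32 (edgeR adjusted p = 0.31), *Mymx* at 0.05 ± 0.33 (edgeR adjusted p = 0.94), *Mymk* at 0.75 ± 0.32 (edgeR adjusted p = 0.15) and *Pax3* at -1.3 ± 0.48 (edgeR adjusted p = 0.093) were not called. *Pax7*, with 25 and 19 gated UMIs at Day 2 and 0 at Day 7, was at least 1.30-fold lower and not called (edgeR adjusted p = 0.1), and *Myf6* had too few UMIs to be tested. Without Day 7 replicate B, *Myog* at -0.60, *Mymk* at 0.96 and *Pax3* at -1.59 were called (edgeR adjusted p = 0.021, 0.00023 and 0.031), and *Myog* at -0.90 was also called without Day 7 replicate A (edgeR adjusted p = 0.0068). Other settings also moved these calls. With no upper limit on genes per cell, *Mymk* at 0.86 and *Pax3* at -1.23 were called (edgeR adjusted p = 0.02 and 0.031). With the gate at 0.1%, *Pax3* at -1.56 and *Pax7* were called (edgeR adjusted p = 0.031 and 0.0082), and with no low-count filter *Pax3* at -1.43 was (edgeR adjusted p = 0.032). Gated cells of at least 3000 UMIs gave *Mymk* at 1.05 (edgeR adjusted p = 0.038), but Day 7 replicate B then had 2 cells. Day 10 was left out of this fit, since replicate A had 2 gated cells.

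The gated cells of Day 7 were shallow, with medians of 1618 and 1181 UMIs where their libraries had 8062 and 9337. They also carried cartilage RNA. All 12 cartilage genes tested were higher in them than in gated Day 2 cells, and the list summed to 9263 and 4740 CPM against 252 and 398 CPM at Day 2. Outside the gate the cartilage list stood at 19641 and 18222 CPM at Day 7. The gate list itself stood at 35847 and 32306 CPM in the gated cells of Day 7, against 18433 and 16778 CPM in those of Day 2. The part of this shift, of the cartilage RNA and of the low depth in the values above was not tested. Their other genes are given with the pathway lists below.

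Within Day 2 cells, the levels of the members had different profiles along a muscle ranking, and the profiles were alike in both libraries. Cells were ranked by the share of their UMIs on the 22-gene gate list, which the 8 genes do not enter. Among cells with 0.05 to 0.1% of UMIs on the list, *Pax7* was at 59.3 and 47.3 CPM and *Myf5* at 85.6 and 57.1 CPM. *Myod1* was already at 46.9 and 30.5 CPM there and *Myog* at 15.2 and 23.6 CPM, whereas *Mymk* had 0 UMIs in replicate A and stood at 1.97 CPM in replicate B. *Mymx* was at 0 and 4.92 CPM there, at 11.2 and 23.0 CPM among cells of 0.1 to 0.2% and at 95.2 and 98.6 CPM among cells of 0.2 to 0.5%.

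*Pax7* was at 12.6 and 8.15 CPM at 0.2 to 0.5% and was at 0 in every bin above. *Myf5* was at 46.3 and 13.7 CPM at 0.2 to 0.5% and at 7.20 and 1.54 CPM at 0.5 to 1%. *Myod1* was at 281 and 228 CPM at 0.2 to 0.5% and at 485 and 483 CPM at 1 to 2%. *Myog* had a steeper slope, from 91.3 and 62.6 CPM at 0.1 to 0.2% to 1287 and 1051 CPM at 0.5 to 1%, and had its highest level, 1496 and 1347 CPM, at 1 to 2%.

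Of the fusion genes, *Mymx* was highest in the same bin as *Myog*, and *Mymk* was highest further along the ranking. *Mymx* reached 346 and 445 CPM at 0.5 to 1% and its highest level, 665 and 628 CPM, at 1 to 2%. *Mymk* was at 114 and 168 CPM at 0.5 to 1%, at 221 and 259 CPM at 1 to 2% and at 378 and 386 CPM at 2 to 5%. Above 5%, where only 10 and 9 cells lay, *Mymk* was at 385 and 451 CPM and *Mymx* at 212 and 29.4 CPM. *Pax3* had no such slope, with 23.5 and 22.6 CPM in the lowest bin and 32.4 and 22.6 CPM at 2 to 5%.

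**Figure D2:**
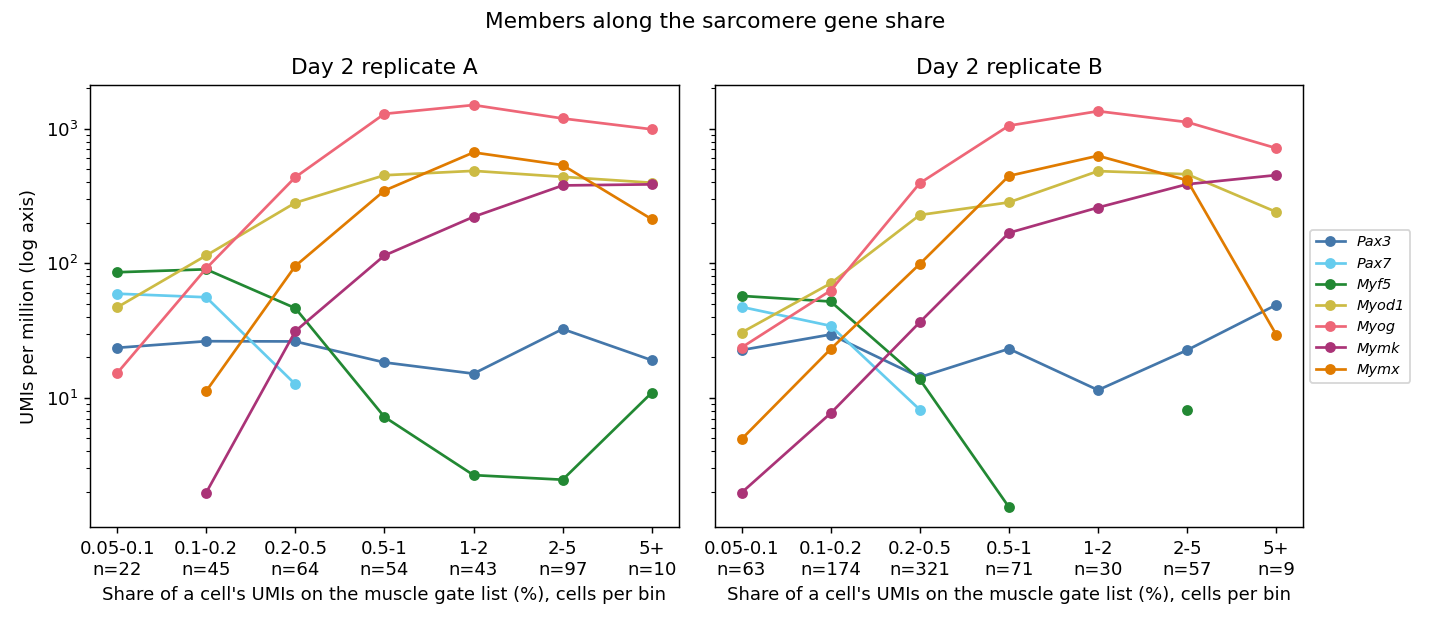
Level of 7 of the genes (CPM, log axis) in Day 2 cells binned by the share of a cell's UMIs on the 22-gene muscle gate list, with 1 panel per replicate; *Myf6* and points at 0 are left out. *Pax7* and *Myf5* are highest in the left bins, *Myog* and *Mymx* peak at 1 to 2%, and *Mymk* is still higher at 2 to 5%, in both replicates.

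The profile was also summarised by 1 contrast per gene on sums of cells per library, with the library as a block. Cells of at least 1% were set against cells of 0.05 to 0.5%, a contrast chosen after the profile had been seen, so it restates the profile. It compares each gene between cells, tests no order between genes, has 1 residual degree of freedom and rests on 2 libraries. The cells also differed in depth, with a median of 24338 UMIs above against 31490 below in replicate A and of 25373 against 3382 in replicate B, and the part of depth in the values was not tested. In it, 22.4% of 11129 genes were called higher and 20.4% lower. Of the 7 members tested, 4 were higher and 2 lower. *Mymk* rose by 4.57 ± 0.13 (edgeR adjusted p = 2.3e-08), *Mymx* by 3.48 ± 0.13 and *Myog* by 2.68 ± 0.1 (edgeR adjusted p = 9.1e-08 for each), and *Myod1* by 1.77 ± 0.13 (edgeR adjusted p = 3.6e-06). *Myf5* changed by -3.37 ± 0.34 (edgeR adjusted p = 3.6e-05), and *Pax7*, with 278 UMIs below and 0 above, was at least 63.8-fold lower (edgeR adjusted p = 7.2e-06). *Pax7* passed the low-count filter through the cells below alone, so entry to the test set its direction. *Pax3* at 0.31 ± 0.19 was not called (edgeR adjusted p = 0.21).

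A second contrast set cells of at least 2% against cells of 0.5 to 2%. It too was chosen after the profile had been seen, so it restates the profile, and it has 1 residual degree of freedom. Of the differentiation and fusion genes only *Mymk* was called, and the difference between genes was not tested. *Mymk* changed by 1.3 ± 0.1 (edgeR adjusted p = 4.8e-07), where 14.2% of 9642 genes were called higher and 11.2% lower. *Myog* at 0.01, *Mymx* at -0.01 and *Myod1* at 0.24 were not called (edgeR adjusted p = 0.94, 0.97 and 0.076). Median depths were 24730 against 24328 UMIs in replicate A and 26346 against 4802 in replicate B. *Pax3*, a gene of progenitors, was the other member called, higher by 0.93 ± 0.23 (edgeR adjusted p = 0.0082).

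The levels of *Mymk* and *Mymx* were also compared cell by cell. Gated Day 2 cells were thinned to 5000 UMIs each, which left 253 and 176 cells. Cells with neither fusion gene, 72 and 69 in number, had a median gate share of 0.413% and 0.346%. The 46 and 38 cells with *Mymx* alone lay at 0.934% and 0.612%, the 107 and 44 cells with both at 2.07% and 1.91%, and the 28 and 25 cells with *Mymk* alone at 3.38% and 3.62%. The medians had this order in both libraries, but the cells overlapped widely. The middle 50% of cells with *Mymk* alone ran from 0.824 to 4.25% and from 0.674 to 4.53%, against 1.02 to 3.47% and 0.906 to 3.29% for cells with both. The summed level of 12 genes of dividing cells, such as *Mki67* and *Top2a*, ran the other way, at 2017 and 2241 CPM in the cells with neither and at 562 and 422 CPM in those with *Mymk* alone.

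Co-detection was also counted in single cells of Day 2. Of the 68 and 79 Day 2 cells with a *Pax7* UMI, 89.7% and 59.5% also had *Myf5*, 61.8% and 45.6% *Pax3* and 47.1% and 51.9% *Myod1*. A *Myog* UMI was in 25% and 17.7% of them, and 2.94% and 1.27% had *Mymk*. Of cells with *Myod1*, 75.2% and 51.2% had *Myog*, and of cells with *Pax3*, 62.7% and 49.2% did. Of cells with *Mymx*, 75.3% and 36.0% had *Mymk*, and of cells with *Mymk*, 53.3% and 32.0% had *Mymx* and 59.0% and 43.7% *Myog*. These counts gave no one order of the fusion genes, since in gated cells 92.9% and 56.5% of *Mymx* cells had *Mymk* and 91.0% and 67.1% of *Mymk* cells had *Mymx*.

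In gated cells of replicate A, where depth was high, 199 of 200 cells with *Mymk* had *Myog* and 198 had *Myod1*, while 1 had *Pax7*. These shares are near those of all gated cells of that library, of which 92.9% had *Myog* and 92.5% *Myod1*. In the shallower replicate B, 135 of 161 gated cells with *Mymk* had *Myog*, against 57.2% of all gated cells. The reverse was less complete, since 199 of 249 gated cells with *Myog* in replicate A, and 135 of 279 in replicate B, had *Mymk*. Of all gated cells, 74.6% and 33.0% had *Mymk*. After thinning to 5000 UMIs, 60% and 40% of *Pax7* cells had *Myf5* and 10.0% and 5.0% had *Myog*, and 81.1% and 70.8% of *Myod1* cells had *Myog*. Free RNA was not removed, so these are shares of cells with a UMI and not of cells that express both genes.

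**Figure D3:**
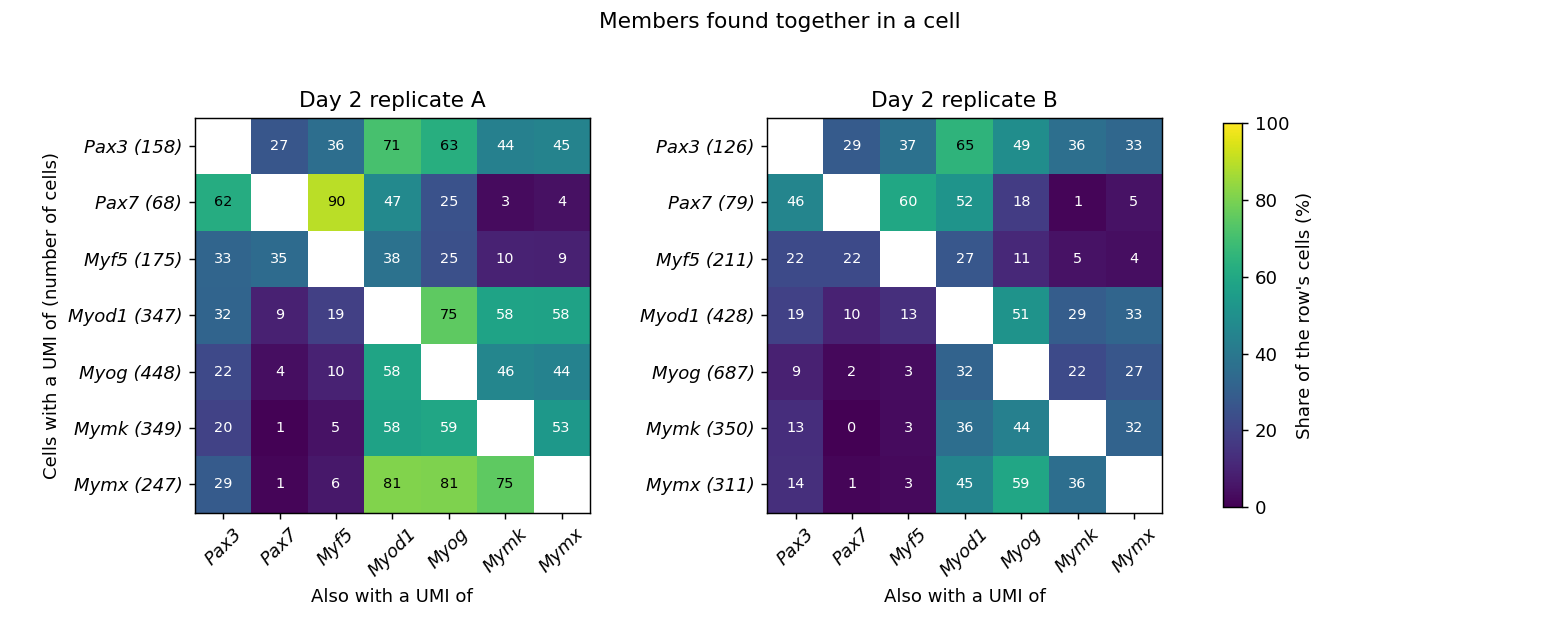
Share of cells with a UMI of the row's gene that also had a UMI of the column's gene (percent, colour and number), in the filtered cells of each Day 2 replicate, with the number of cells beside each row. The *Pax7* row is high for *Myf5* (89.7% and 59.5%) and near 0 for *Mymk* (2.94% and 1.27%), and the *Mymx* row is high for *Myog* and *Myod1*.

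Cells with at least 2 UMIs over *Pax3*, *Pax7*, *Myf5*, *Myod1* and *Myog*, 357 and 381 at Day 2, were divided by the furthest gene they held, as a description. Cells with a paired-box gene or *Myf5* but neither *Myod1* nor *Myog* numbered 43 and 32, 12% and 8.40%. A further 36 and 53 had *Myod1* without *Myog*, 60 and 120 had *Myog* without a fusion gene, and 218 and 176, 61.1% and 46.2%, had *Myog* with *Mymk* or *Mymx*. The 120 cells of replicate B had a median of 3722 UMIs against 23632 in the fusion cells of that library, so missed fusion UMIs weigh more there. Of the 218 and 176 cells of the last kind, 74 and 50 had *Pax3* and 2 and 4 had *Pax7*. The first kind is defined by *Pax3*, *Pax7* or *Myf5*, so its counts of these genes are set by the rule.

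Genes outside the set differed between these kinds of cell as well. The gate list stood at 850 CPM in the first kind in both libraries and at 21020 and 20772 CPM in the last. The list of dividing cells went from 2144 and 2817 CPM to 865 and 1207 CPM. *Cdkn1a* (p21), which stops the cell cycle, went from 94.0 and 12.3 CPM to 1236 and 1069 CPM, and *Cdkn1c* (p57), of the same role, from 1959 and 1368 CPM to 7650 and 7277 CPM. *Msc* (musculin), a bHLH repressor of muscle progenitors, went from 114 and 136 CPM to 2.88 and 4.89 CPM. Levels in cells with a *Myod1* UMI but no *Myog* lay near those of the first kind for the dividing list, at 2737 and 2487 CPM. Cells with *Myog* but no fusion gene lay near them too, at 2402 and 2330 CPM. In the latter cells *Cdkn1c* stood at 2110 and 2031 CPM and *Cdkn1a* at 253 and 83.9 CPM.

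**Figure D4:**
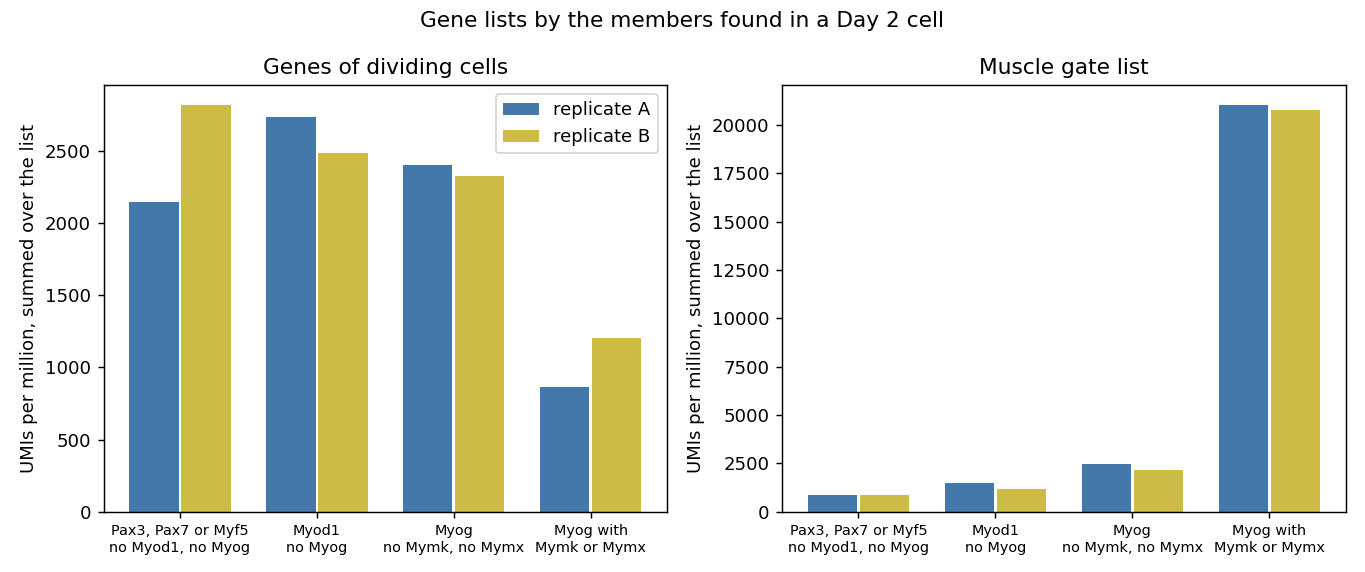
Summed level of the gate list and of the list of dividing cells (CPM) in Day 2 cells divided by the members they held, for each replicate. The gate list is highest in cells with *Myog* and a fusion gene (21020 and 20772 CPM), where the list of dividing cells is lowest (865 and 1207 CPM).

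Genes whose levels ran most like those of each member across Day 2 cells were ranked by Pearson's r, averaged over both libraries, among 14733 genes. The cells of a library share its depth, so r is given as a description, for replicate A and then for replicate B, and it was lower in the shallower replicate B for every pair named here. *Pax7* ran most like *Msc* (0.65 and 0.25), *Myf5* (0.58 and 0.16), *Pitx1* (0.42 and 0.15), *Kcne1l* (0.34 and 0.14) and *Lbx1* (0.32 and 0.17), a homeobox gene of migrating limb muscle progenitors. *Myf5* had *Pax7* (0.58 and 0.16), *Msc* (0.56 and 0.17), *Pitx1* (0.35 and 0.15), *Kcne1l* (0.33 and 0.1) and *Lbx1* (0.29 and 0.13) as its neighbours. *Myod1* ran most like *Myog* (0.89 and 0.46) and *Tnnt1* (0.86 and 0.47), and *Myog* most like *Actc1* (0.89 and 0.54), the embryonic striated muscle actin, and *Tnnt1* (0.86 and 0.51). *Mymx* ran most like *Myog* (0.85 and 0.44) and *Actc1* (0.8 and 0.46), whereas *Mymk* ran most like the myosin light chains *Mylpf* and *Myl1* (0.83 and 0.45 for each). The most similar genes to *Pax3* were sarcomere or filament genes, *Tnnt1* (0.46 and 0.22), *Des* (0.44 and 0.22), *Mybpc1* (0.42 and 0.23), *Ttn* (0.42 and 0.2) and *Neb* (0.39 and 0.18), and these r of replicate B are weak. *Myf6* was found in fewer than 50 cells of each library and was not compared.

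On each day, *Mymk* was also found in cells outside the gate that mostly had no other member. At Day 2 these were 149 and 189 cells, of which 10 and 25 had another member, and the gate list stood at 57.0 and 71.2 CPM in them against 43.8 and 58.4 CPM in the cells outside the gate without *Mymk*. At Day 7 they were 62 and 54 cells, of which 0 and 1 had another member.

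In the gate lay 1.52% and 32.3% of its Day 10 UMIs. With the upper limit on genes per cell lifted, 182 of 259 and 91 of 172 Day 10 *Mymk* UMIs were in gated barcodes, so the low share holds for the filtered cells and not for all deposited barcodes. Among the filtered cells, 62 and 58 cells outside the gate had a *Mymk* UMI, never more than 2 in a cell. A UMI of another member was in 1 of the 62 and 0 of the 58. Cells of the cartilage class, with UMIs of at least 3 of 12 cartilage genes and at least 0.5% of their UMIs on that list, made up 75.8% and 86.2% of them, where they were 40.4% and 39.2% of all cells outside the gate.

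At Day 10, 47 of 4197 and 50 of 3893 cartilage-class cells had a *Mymk* UMI, 1.12% (exact 95% interval 0.824 to 1.49) and 1.28% (0.955 to 1.69). In the other cells outside the gate 15 of 6186 and 8 of 6037 did, 0.242% and 0.133%, although these were deeper, with medians of 28180 and 26179 UMIs against 11471 and 8410. *Mymk* was at 0.601 and 0.791 CPM in the cartilage class and at 0.0847 and 0.0554 CPM in the others. The difference was 3.35 ± 0.31 on the log2 scale (edgeR adjusted p = 9.5e-05), where 36.7% of all genes tested were called higher in the cartilage class. *Mymk* was the only member that passed the low-count filter in this contrast, so the other members were not tested. The same cartilage-class cells held 3 and 3 *Myog* UMIs and 0 and 3 *Mymx* UMIs, against 50 and 56 of *Mymk*.

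Day 7 showed the same side with a smaller difference. *Mymk* was at 0.417 and 0.411 CPM in the cartilage class and at 0.174 and 0.0958 CPM in the others, a difference of 1.8 ± 0.34 (edgeR adjusted p = 5.2e-05), where 37.2% of all genes were called higher. *Myog* at 0.86 and *Myf5* at 0.26 were not called there (edgeR adjusted p = 0.083 and 0.39). Both contrasts were added after the values had been seen and have 1 residual degree of freedom. *Mymk* passed the low-count filter of each through the cartilage class, so for *Mymk* they restate the values above. At Day 2 the cartilage class had little *Mymk*, in 0.156% and 0.276% of its cells against 1.86% and 1.25% of the others.

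The genes that stood highest in *Mymk* cells outside the gate, over the cells without it, were not the same at Day 2 as later. At Day 2 they were *Scx*, a tendon factor, at 295 against 140 CPM in replicate A and 281 against 127 CPM in replicate B, followed by *Gas2* and *Aspn*. At Day 7 *Cdsn* led, at 118 against 35.3 CPM and 104 against 32.1 CPM, followed by *Ostn*. *Cdsn* led again at Day 10, followed by *Col10a1*, the collagen of hypertrophic cartilage. *Col10a1* stood at 602 against 125 CPM and at 514 against 87.5 CPM, and *Snorc*, *Comp*, *Hapln1* and *Acan*, all of cartilage, came next, while *Ostn* and *Matn1* were among the leading 10 on both days. The *Mymk* cells were deeper than all cells outside the gate, with medians of 27504 and 18096 UMIs against 18313 and 3887 at Day 2. The medians were 31580 and 30504 against 8158 and 9510 at Day 7, and 42462 and 40612 against 24199 and 22180 at Day 10. The part of depth in the leading genes was not tested. Between Day 7 and Day 10, *Mymk* outside the gate changed by -0.22 ± 0.23 and was not called (edgeR adjusted p = 0.45), an alternative added after the data had been seen.

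**Figure D5:**
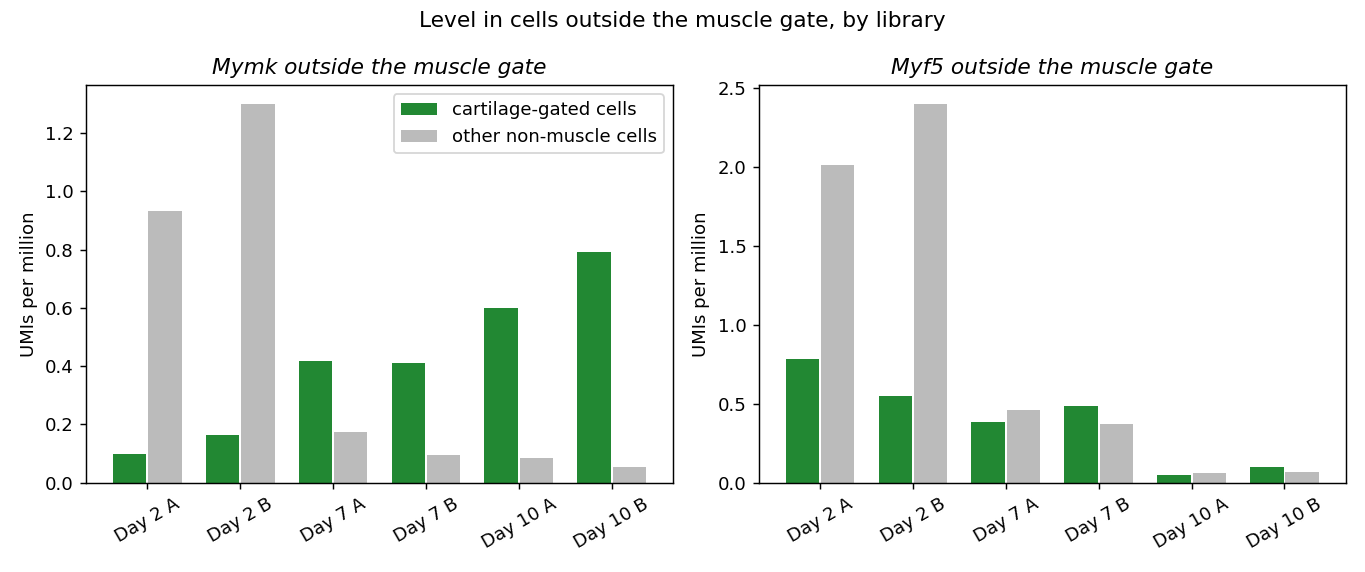
Level of *Mymk* and *Myf5* (CPM) in cartilage-class cells and in the other cells outside the muscle gate, by library. *Mymk* in the cartilage class is above the other cells at Day 7 (0.417 and 0.411 CPM) and Day 10 (0.601 and 0.791 CPM) and below them at Day 2.

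*Myf5* was also found outside the gate, at a level that fell from day to day. In the sums over those cells, an alternative added after the data had been seen, it fell by 1.99 ± 0.17 on the log2 scale from Day 2 to Day 7 and then fell by 2.69 ± 0.22 to Day 10 (edgeR adjusted p = 3.3e-06 and 2.2e-05). At Day 7, 66 of the 67 and 66 of the 66 cells with *Myf5* were outside it, with up to 4 and 7 UMIs in a cell, and 1 and 3 of them had another member. The cartilage class held 59.1% of them in both replicates, below its 74.4% and 65.9% among all cells outside the gate. Their leading gene was *Fabp4*, a lipid carrier, at 258 against 26.1 CPM and at 310 against 28.3 CPM, and the early-response gene *Fos* came next. *Eomes*, a T-box factor, was in 50% of them in both replicates, at 79.6 against 3.76 CPM and at 58.0 against 3.44 CPM. The muscle gate list stood at 22.5 CPM in them in replicate A, against 33.4 CPM in cells outside the gate without *Myf5*, and at 42.9 against 35.5 CPM in replicate B. At Day 10, 11 and 16 cells had *Myf5*, all outside the gate, led by *Kcnk2* at 144 against 20.3 CPM and 87.6 against 23.1 CPM, with *Gdf10* and *Omd* after it. The *Myf5* cells outside the gate had medians of 18657 and 22293 UMIs at Day 7, against 8158 and 9510 for all cells outside the gate. At Day 10 the medians were 31030 and 23364 against 24199 and 22180. The leading genes describe the cells, and neither they nor the part of depth in them was tested.

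Most *Pax3* cells of later days were outside the gate. At Day 7 these were 7 and 8 cells, of which 0 and 1 had another member, against 3 and 1 inside the gate, and at Day 10 they were 6 and 8 cells, with 0 inside. *Ibsp*, a bone matrix protein, led in the Day 10 cells, at 17891 against 486 CPM and at 27188 against 698 CPM, with UMIs in 33.3% and 62.5% of them. Those Day 10 cells had medians of 36563 and 24232 UMIs, against 24199 and 22180 for all cells outside the gate. At Day 2, by contrast, 45 of 61 and 39 of 60 *Pax3* cells outside the gate had another member. The list of Schwann or neural crest genes, *Sox10* and *Erbb3* among them, stood at 96.8 and 82.7 CPM in those Day 2 cells. It stood at 9.04 and 10.8 CPM in cells outside the gate without *Pax3*. The same list stood at 67.8 and 70.1 CPM in the muscle-gated cells of Day 2, so the level was not particular to the cells with *Pax3*. Most of it in the gated cells was 1 gene, *Erbb3*, at 59.8 and 58.6 CPM after TMM scaling. The part of *Erbb3* in the *Pax3* cells was not counted. *Pax3* is also known as a gene of the neural crest. The part of such cells in the *Pax3* values was not tested.

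Other genes of the muscle pathway were also tested in the whole cultures, where 34.6% of all genes tested were called lower and 35.7% higher at Day 7 than at Day 2. Of the 22 gate genes, 16 were lower and 1 higher at Day 7 than at Day 2, with a median log2 fold change of -1.9 where the median of all genes was 0.014, and 21 were lower at Day 10. Of 12 limb muscle progenitor genes, 9 were lower and 3 higher at Day 7, among them *Eya2* at -0.86 ± 0.082 (edgeR adjusted p = 1.9e-05). *Eya1* was higher by 1.86 ± 0.1 (edgeR adjusted p = 6.2e-07). *Lbx1* at -4.67 ± 0.39 and *Msc* at -3.28 ± 0.28 (edgeR adjusted p = 7.1e-06 and 8.2e-06) were named after their values were seen. Many of these progenitor genes are also used by limb mesenchyme.

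Of 17 partners and inhibitors of the bHLH factors, 12 were lower and 4 higher at Day 7. *Id1*, which binds the partners of bHLH factors and so blocks them, fell by 1.38 ± 0.074 (edgeR adjusted p = 5.1e-07), and *Twist2* fell by 1.17 ± 0.065 (edgeR adjusted p = 6.4e-07). Of 15 adhesion and fusion genes tested besides the members, 8 were lower and 2 higher, with *Cdh2* (N-cadherin) at -1.72 ± 0.052 (edgeR adjusted p = 2.1e-08) and *Dock5* at 1.09 ± 0.064 (edgeR adjusted p = 8.8e-07). Of 8 genes of the neuromuscular junction, 7 were lower and 1 higher, with a median of -1.8. All 12 genes of dividing cells were lower, with a median of -1.29. Of 6 genes of cell-cycle exit 3 were higher and 2 lower, which is near the share of all genes, with *Cdkn1a* up by 1 ± 0.16 (edgeR adjusted p = 0.00049). The part of cells outside the gate in these whole-culture values was not tested. In gated cells, after TMM scaling, *Cdh2* went from 26.74 and 31.09 CPM on Day 2 to 31.11 and 40.04 CPM on Day 7. In whole cultures it went from 77.24 and 76.68 CPM to 23.39 and 23.22 CPM. On Day 2, *Twist2* was at 4.651 and 4.085 CPM in gated cells, against 34.97 and 31.14 CPM in whole cultures. *Id1* was lower in gated cells too, as given below.

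Within gated cells, where 5.76% of all genes tested were called lower and 8.68% higher, the lists had other counts from Day 2 to Day 7. All 12 genes of dividing cells were lower there, with a median of -2.94 and *Ube2c* at -4.49 ± 0.42 (edgeR adjusted p = 6.6e-05). Of 8 neuromuscular junction genes 5 were higher and 0 lower, but 3 of the 8 (*Chrna1*, *Chrnd* and *Chrng*) belong to the gate list that chose the cells. The other two, *Lrp4* at 2.23 ± 0.44 and *Dok7* at 1.32 ± 0.34 (edgeR adjusted p = 0.0062 and 0.023), are not on that list. Of 11 adhesion and fusion genes tested 4 were higher and 0 lower, with *Cav3*, the caveolin of muscle fibres, at 2.57 ± 0.39 (edgeR adjusted p = 0.0014) and *Jam2* at 1.25 ± 0.25 (edgeR adjusted p = 0.007). Of the bHLH partners and inhibitors 4 of 16 were lower, among them *Id1* at -1.24 ± 0.3 (edgeR adjusted p = 0.018), and 1 was higher. Of the 6 cell-cycle exit genes 0 were called by edgeR, and 3 had an unadjusted p under 0.05 (*Cdkn1c* at -1.85, *Rb1* at -0.75 and *Ccnd1* at 0.59).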

How the data were processed

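Single-cell RNA-seq was made with the 10x Genomics 3′ v3.1 kit. The authors aligned and counted reads with Cell Ranger 6.1.2 and STAR on GRCm38 (mm10), per the labels and the submitters' processing notes, which also name Seurat 4.1.0. The deposited values are raw UMI counts per gene and barcode, 1 matrix per library.

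The study's limits were applied per library (200 to 7500 genes, at least 800 or 1000 UMIs, at most 25 to 40% mitochondrial and 35 to 40% ribosomal UMIs), and doublets were not called. UMIs were summed per library over all cells or a set of cells and compared with edgeR 4.0.16 (R 4.3.3; filterByExpr, TMM, quasi-likelihood test), with Benjamini-Hochberg adjustment over all genes tested and a call at an adjusted p under 0.05. TMM factors were 0.927 to 1.14 and the fit over 6 libraries had 3 residual degrees of freedom, so p-values rest on 2 cultures per day. Each SE is the absolute log2 fold change divided by the square root of edgeR's F statistic. It draws on a spread moderated across genes and is not the spread of the 2 cultures alone. DESeq2's SE was larger for every member between Day 2 and Day 7 in whole cultures, at 1.2 against 0.52 for *Myog*. DESeq2 1.42.0 (limma 3.58.1 loaded with edgeR) and the other alternatives are in the closing section. The fits were tested on simulated counts. The other steps used Python 3.11.15 with numpy 2.4.6, pandas 2.3.3, scipy 1.17.1 and matplotlib 3.10.9.

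Intervals (exact, 95%) and floors (3 UMIs) cover counting error only. Thinning drew each cell to 1000 or 5000 UMIs and left out shallower cells. UMIs of free RNA in droplets were not removed. Leading genes of cells outside the gate were the 10 with the largest log2 ratio, after adding 20 CPM, among genes in at least 25% of those cells.

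The genes, the lists and the tests were chosen with earlier results of these data known. All 8 genes are named with their values. From each list the 3 called genes of largest fold change with at least 10 CPM at a day could be named, and for likeness the 5 genes of highest r among genes in at least 50 cells of each Day 2 library. The cartilage and gate-share contrasts and the genes leading outside the gate were chosen after values had been seen. A result of the progenitor list is not reported here.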

Additional observations from a re-analysis of the deposited data

Results flagged for a closer look

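At Day 10, barcodes with more than 7500 detected genes, which the comparisons leave out, held more UMIs of several members than all cells kept. At Day 2 and Day 7 such barcodes held no more UMIs of any member than the cells kept. In Day 10 replicate A, the 660 such barcodes held 77 *Myod1* UMIs against 3 in the cells kept, 155 *Myog* UMIs against 15, 193 *Mymk* UMIs against 66, 101 *Mymx* UMIs against 6 and 4 *Myf6* UMIs against 2. All of the *Myod1* and *Mymx* UMIs, 154 of those of *Myog* and 181 of those of *Mymk* lay in 3 barcodes in the muscle gate with a median of 127889 UMIs, and 0 of those of *Myf6* did. In Day 10 replicate B, 643 such barcodes held 76 *Myod1* UMIs against 35 and 151 *Myog* UMIs against 114, of which 3 gated barcodes held 75 and 148. The same 643 barcodes held fewer UMIs than the cells kept for *Mymk*, 77 against 96, and for *Mymx*, 51 against 57. Whether these barcodes are single fused cells, several cells in a droplet or another kind of cell was not tested.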

How the results depend on the processing

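Of the 8 genes, 8 were called lower at Day 7 than at Day 2 in the main fit, 7 with DESeq2's test (not *Myf6*) and 7 to 8 when single libraries were left out. From Day 7 to Day 10, 5 were called, and 3 were with DESeq2's test, 3 with no upper limit on genes per cell, 3 in cells outside the muscle gate and 1 to 5 with single libraries left out. Against Day 2, 8 were called at Day 10 under every alternative run. Among gated cells 1 of 7 was called, against 0 with DESeq2's test (791 genes called, 1860 at an unadjusted p under 0.05), 2 with no low-count filter, 3 with a gate at 0.1%, 0 with a gate at 0.5% (942 genes called), 2 in cells of at least 3000 UMIs (a void test, with 2 cells in Day 7 replicate B where 10 were asked of a library), 3 with no upper limit (2575 genes called) and 0 to 4 with single libraries left out (364 to 2462 genes called against 1560). *Mymx* in gated cells, 0.05 in the main fit, turned to -0.07 with no low-count filter and -0.31 with a gate at 0.5%, and ran from -0.1 (without Day 2 replicate B) through -0.03 (without Day 7 replicate A) to 0.3 (without Day 2 replicate A) with single libraries left out, uncalled each time. With a library left out, its day has 1 library, which is assumed to vary like those of the other days. The cause of these changes was not tested. The replicate letters were not used to pair the libraries in the main fit. The differences of A and B correlated at -0.02, -0.1 and 0 between days, which cannot exclude a batch shared by a letter. With the replicate block 8, 5, 8 and 1 members were called. Shares of cells with a UMI depend on depth, and 48 of 96 such shares moved beyond their interval, as did 5 of 12 gate shares and 5 of 27 co-detection shares.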
